A study of Mus musculus with 12 samples.

Results

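The 43 lysosome and autophagy genes described here are the cathepsins and other acid hydrolases, the membrane proteins of the lysosome, the proteins that deliver enzymes to it, and core proteins of autophagy. A gene entered when at least 1 probe set of the Affymetrix murine U74 version 2 chips A, B and C carried its symbol alone, and it was taken by its probe set with the highest mean over the 4 cell populations. All 43 had such a probe set, out of 15964 genes on the 3 chips, and they comprised 11 peptidases, 7 glycosidases, 6 proteins of lipid breakdown and export, 8 membrane proteins, 3 proteins of enzyme sorting and 8 autophagy proteins.

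All cells were MIN6, an insulin-secreting line derived from a mouse insulinoma and grown in high glucose, and no treatment or engineered allele separated the populations. The populations were parental cells at passages 35 to 40 (Pr-HP), clone 4 cells of passage 40 to 50 (C4-HP), and both lines at a lower passage of 17 to 20, named C4-LP for clone 4 and Pr-LP for the parental line. The study compared Pr-HP, which had lost glucose-stimulated insulin secretion (GSIS), with the other 3 populations, which kept it and are called responder cells. Clone 4 is 1 subclone, and each population was hybridised to 1 array per chip. The values are probe set intensities in linear units, and no error can be given for a single population. A mean over the responder cells therefore joins 3 different populations, and its spread is not that of replicates.

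Lysosomes are acidic organelles in which peptidases, glycosidases and lipases break down material delivered by endocytosis and autophagy. Most of these enzymes are tagged with mannose 6-phosphate in the Golgi and carried to the lysosome by receptors. In autophagy a membrane closes around cytoplasm and then fuses with the lysosome, and in β-cells autophagy helps dispose of surplus insulin granules and damaged mitochondria.

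The median intensity of the 4 arrays differed little within each chip, lying between 214.2 and 216.0 units on chip A. Values under the 20th percentile of a chip (67.3, 58.6 and 29.1 units on chips A, B and C) were raised to it and are called the floor. Control probe sets at both ends of Gapdh measure RNA integrity, and their 3′ to 5′ ratio was lower in Pr-HP (0.867, 0.953 and 1.16 on chips A, B and C) than in any responder population. For Actb this held for chip A and chip B, while chip C gave 1.34 in Pr-HP and 1.30 in C4-LP. Of 13 β-cell markers 10 had a probe set, with a median log2 ratio of Pr-HP to the responder mean of -0.23. Pr-HP was below every responder population for 5 of them (Iapp, Chga, Pdx1, Nkx2-2 and Neurod1, between 0.548 and 0.857 times the responder mean) and above for 3, of which Pcsk1 was at 2.12 times and Ins2 at 1.03 times. The summed intensity of the 10 was 40596 units in Pr-HP, against 40215 in C4-HP, 44810 in C4-LP and 41260 in Pr-LP. The largest single value was that of Ins2 (15526 units in Pr-HP), and the study cautioned that insulin signals might lie beyond the linear range. Ins1, which the study found much lower in Pr-HP by quantitative RT-PCR, was not in the list. Gcg, the α-cell hormone glucagon, gave 10552 units in Pr-HP, against 2915 in C4-HP, 3175 in C4-LP and 501.7 in Pr-LP. Of 6 α-cell markers 4 had a probe set. The 3 besides Gcg were under the responder mean in Pr-HP, with Ttr at 0.151, Irx1 at 0.695 and Irx2 at 0.842 times. Irx2 was under the floor in Pr-HP and Pr-LP. For Ttr and Irx1 the highest population was C4-LP. Against Pr-LP, Pr-HP had 248.0 to 435.4 units for Ttr and 235.4 to 265.6 for Irx1. The median log2 ratio of the 4 was -0.39. The summed intensity of the 4 was 11077 units in Pr-HP, against 4621 in C4-HP, 6866 in C4-LP and 1250.1 in Pr-LP. In Pr-HP this sum was mostly Gcg. Maf and Car2 were not in the list. The study reported both as higher in Pr-HP and described them as expressed in α-cells. The part of RNA integrity and of α-cell genes in the results was not tested.

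The promoters of 4 members are printed for reference, from RefSeq (GRCm38.p6), each with 250 bases before and 50 after the annotated start. Capitals mark the E-box CACGTG, a palindrome that reads the same on both strands and is known as a binding motif of the MiT/TFE factors, which regulate lysosomal genes. Cd68 is shown for its large difference, Ctsl and Wipi1 for a pattern they shared, and Ctsa because it was higher in Pr-HP and holds the longer palindrome TCACGTGA, which contains the E-box.
Cd68 (chr11:69666121-69666420, minus strand): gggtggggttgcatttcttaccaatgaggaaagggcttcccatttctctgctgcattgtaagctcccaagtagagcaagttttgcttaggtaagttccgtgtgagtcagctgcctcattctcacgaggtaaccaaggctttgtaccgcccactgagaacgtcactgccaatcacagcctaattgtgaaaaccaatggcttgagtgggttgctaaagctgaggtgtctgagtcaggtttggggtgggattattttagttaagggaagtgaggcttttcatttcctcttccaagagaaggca
Ctsl (chr13:64370471-64370770, minus strand): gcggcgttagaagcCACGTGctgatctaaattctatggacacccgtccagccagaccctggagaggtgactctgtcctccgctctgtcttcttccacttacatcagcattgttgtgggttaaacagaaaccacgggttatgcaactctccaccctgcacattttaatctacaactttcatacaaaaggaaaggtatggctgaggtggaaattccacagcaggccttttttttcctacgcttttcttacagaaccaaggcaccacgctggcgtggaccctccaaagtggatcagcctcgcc
Wipi1 (chr11:109611340-109611639, minus strand): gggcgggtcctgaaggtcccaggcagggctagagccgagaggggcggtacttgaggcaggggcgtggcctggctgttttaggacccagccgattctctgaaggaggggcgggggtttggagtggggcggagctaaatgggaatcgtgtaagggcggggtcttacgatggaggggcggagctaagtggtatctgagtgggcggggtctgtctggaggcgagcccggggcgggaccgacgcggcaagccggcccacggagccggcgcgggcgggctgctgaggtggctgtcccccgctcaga
Ctsa (chr2:164833523-164833822, plus strand): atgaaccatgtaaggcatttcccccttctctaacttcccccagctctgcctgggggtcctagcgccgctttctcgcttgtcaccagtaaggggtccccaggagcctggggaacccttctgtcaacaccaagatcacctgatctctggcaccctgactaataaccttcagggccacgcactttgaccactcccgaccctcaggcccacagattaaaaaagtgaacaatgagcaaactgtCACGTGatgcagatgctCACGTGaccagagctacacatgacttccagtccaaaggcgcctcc
The Cd68 and Wipi1 windows hold no E-box. The Ctsl window holds 1 E-box, 236 bases before the start. The Ctsa window printed here holds E-boxes 12 bases before the start and 6 bases after it, both within TCACGTGA. Another annotated Ctsa promoter (chr2:164832622-164832921), not printed, holds no E-box. A promoter was matched for 36 of the 43 members, and 11 of these (30.6%) held CACGTG in at least 1 promoter, against 8.09% of 27025 genes. The longer TCACGTGA was found in Ctsa, Ctsd, Gla and Mcoln1, which is 11.1% of the matched members, against 1.12% of genes. Among the members at least 1.5-fold higher in Pr-HP, 2 of the 8 with a matched promoter held an E-box, and among the other members 9 of 28 did. These letters are a description of the windows and not evidence of binding.

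The comparison of Pr-HP with the responder cells asked which of these genes differed in the cells without GSIS. Cd68 stood apart from the other members, at 9.19 times the responder mean, and it was the only member that limma called (adjusted p = 0.0447). In all, 3 members were at least 2-fold higher in Pr-HP, namely Cd68, Gnptab and Scarb2, where 1.05% of all genes were. The Gnptab probe set was the brightest of its gene only through its Pr-HP value. With the mean over all probe sets of a gene the count was 2, where 129 of all genes were. In the main comparison 0 members were at least 2-fold lower, where 0.933% of all genes were. At 1.5-fold, 9 members (20.9%) were higher, where 3.04% of all genes were, and 0 were lower, where 3.06% of all genes were. The members were chosen with earlier results of these data known, and the 1.5-fold threshold was added after seeing the data. The study had already listed Cd68, Gnptab, Ctsb, Ctsl and Wipi1 as differing between populations, so these shares are a description. Pr-HP was above every responder population for 18 members (41.9%), where 26.4% of all genes were, and below every responder population for 11, where 24.3% of all genes were. Of the 40 members with a mean above the 40th percentile of their chip, 22.5% were at least 1.5-fold higher, 45.0% were above every responder population and 25.0% were below, where 3.67%, 29.6% and 27.7% of all such genes were. In all, 34 members lay within 1.5-fold, and the median log2 ratio of Pr-HP to the responder mean was 0.05 over the members and 0.00 over all genes. The members past 1.5-fold were Cd68, Gnptab, Scarb2, Wipi1, Ctsb, Map1lc3b, Ctsl, Ctsa and Lipa, and for Wipi1 and Ctsl the Pr-HP value was within the responder range.

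**Figure D1:**
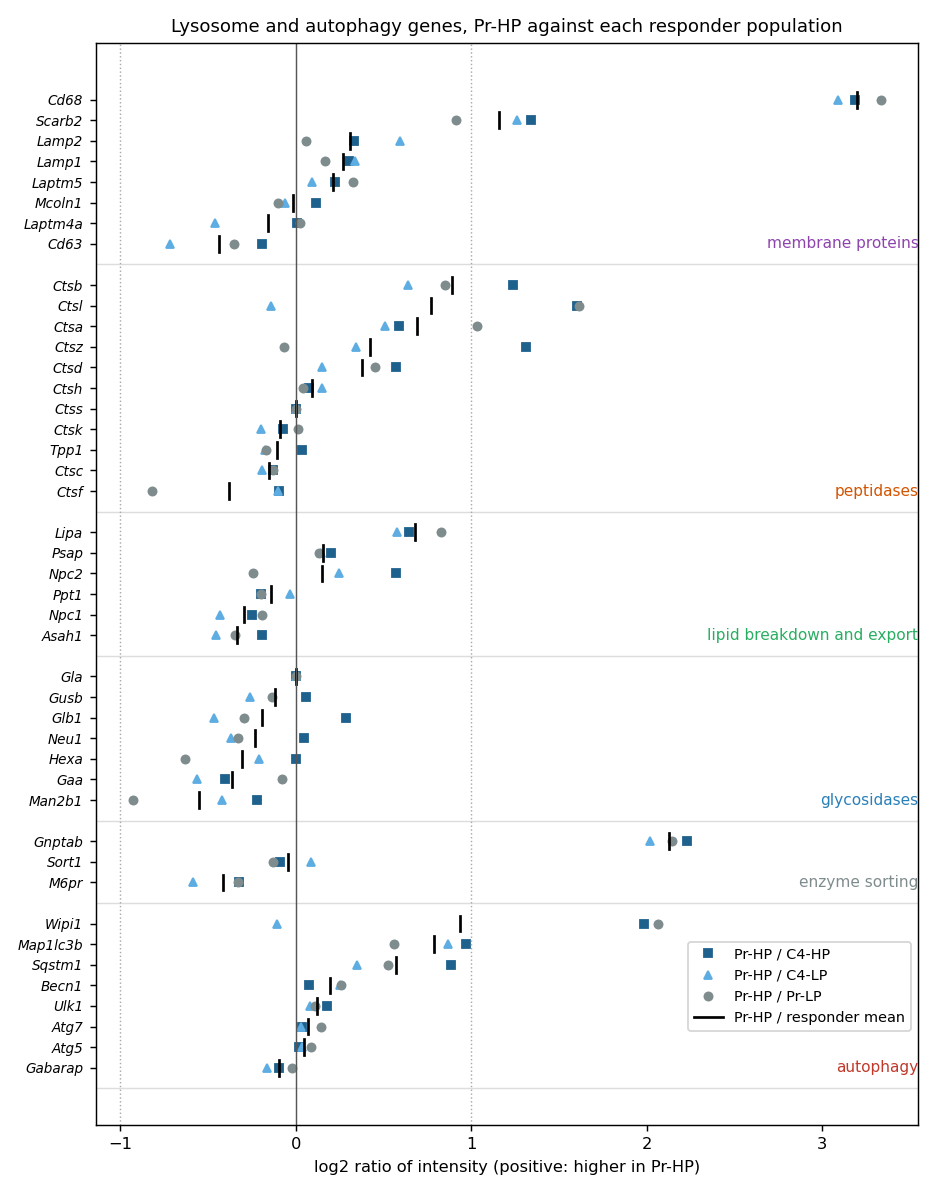
Log2 ratio of the intensity in Pr-HP cells to that in each responder population (squares C4-HP, triangles C4-LP, circles Pr-LP) and to the responder mean (black bars) for 43 members, by role. Dotted lines mark 2-fold, and Cd68 and Gnptab lie furthest to the right, at 9.19 and 4.37 times the responder mean.

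In limma, fitted within each chip over the probe sets that passed a filter on low values, the Pr-HP array was assumed to vary like the 3 responder arrays. This left 2 residual degrees of freedom. Of the 43 members, 40 passed the filter on low values and were tested, and 1 was called at an adjusted p of 0.05, where 0.0815% of 12267 genes were in either direction and 0.0571% were higher in Pr-HP. At an unadjusted p of 0.05, limma gave 7 members higher in Pr-HP, where 5.7% of all genes were. They were Cd68, Scarb2, Lipa, Map1lc3b, Ctsb, Ctsa and Gnptab, of which Gnptab entered the test only through its Pr-HP value, so the count is a description. It gave 1 member lower, M6pr, where 4.24% of all genes were. An exact permutation test of 1 array against 3 cannot give a p below 0.25, so none was used. Gla and Ctss were under the floor on all 4 arrays, and Ctsc was below the filter level on all 4.

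Among the 8 membrane proteins, Pr-HP was above every responder population for 5, where 26.4% of all genes were, and below for 1, where 24.3% of all genes were. Cd68, a heavily glycosylated protein of lysosomes and endosomes best known from macrophages, had 1785 units in Pr-HP cells, against 196.1 in C4-HP, 209.7 in C4-LP and 176.6 in Pr-LP. The responder cells lay close together, and Pr-HP was far outside their range. The limma log2 difference was 3.20 ± 0.14 (SE), and the adjusted p fell short of the threshold when any responder population was left out (0.107 to 0.416), when the floor was set at the 40th percentile (0.0845), without the filter on low values (0.0992) and with the cell line as a block (0.180). This value rests on 1 probe set, whose suffix marks probes shared between several sequences, since the other Cd68 probe set was under the floor on all 4 arrays.

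Cd68 is also a macrophage marker. Of 25 other macrophage markers 23 had a probe set, and 0 of them were past 1.5-fold between Pr-HP and the responder mean. Ptprc, Lyz2, Fcgr2b, Fcer1g, Aif1, Cd53 and Mrc1 were under the floor on all 4 arrays. The summed intensity of the list was 3978 units in Pr-HP, against 3527 in C4-HP, 4061 in C4-LP and 3925 in Pr-LP, so Pr-HP lay within the responder range.

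Scarb2 (LIMP-2), which carries glucocerebrosidase to the lysosome, had 2728 units in Pr-HP cells, against 1079 in C4-HP, 1139.6 in C4-LP and 1449 in Pr-LP. The ratio was 2.23, and the other Scarb2 probe set, on a different chip, gave 2.12. Pr-HP was above every responder population with both probe sets, yet the limma adjusted p was 0.258. The structural glycoproteins Lamp1 and Lamp2, which line the lysosomal membrane, were at 1.20 and 1.24 times the responder mean. The other 3 Lamp2 probe sets gave 1.12, 0.917 and 0.992, each with Pr-HP within the responder range. Laptm5 was at 1.16 times, and its other probe sets gave 1.03, above every responder population, and 0.821, below every responder population. The tetraspanin Cd63 was the lowest of the group at 0.738 times. Mcoln1, a lysosomal calcium channel, was at 0.988 times.

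Among the 3 proteins of enzyme sorting, Gnptab encodes the catalytic subunits of the enzyme that begins the mannose 6-phosphate tag. It had 457.7 units in Pr-HP cells, against 97.6 in C4-HP, 113.1 in C4-LP and 103.4 in Pr-LP. The ratio was 4.37 and the limma adjusted p was 0.0539, and the probe set passed the filter through Pr-HP alone. Its Pr-HP value also made it the brightest, since another Gnptab probe set had 145.2 to 154.3 units in the responder cells. The other 3 Gnptab probe sets did not show this difference, with ratios of 1.40, 1.07 and 0.936. M6pr, the cation-dependent mannose 6-phosphate receptor, was at 0.749 times the responder mean with its own probe set (limma adjusted p = 0.477). A probe set shared with the pseudogene M6pr-ps gave 1.27, in the opposite direction. Sort1 (sortilin), which sorts cargo without the tag, was at 0.968 times.

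**Figure D2:**
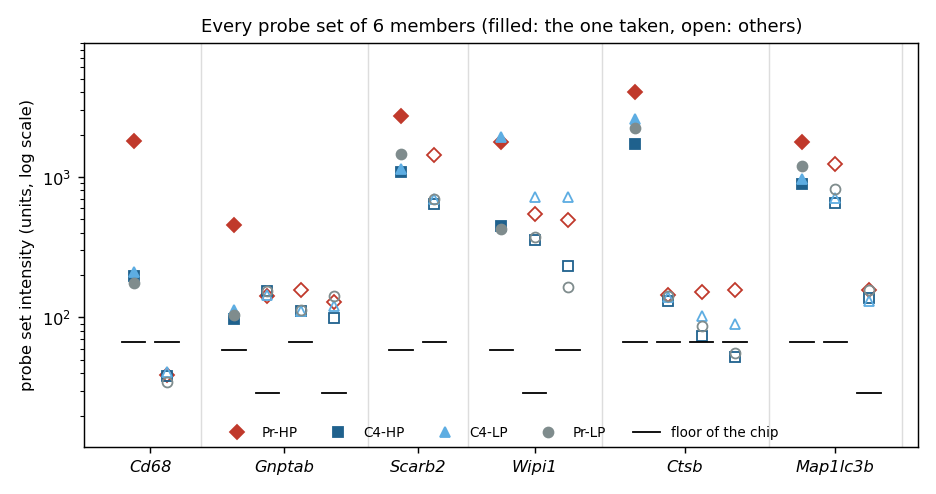
Intensity of every probe set of 6 members in Pr-HP, C4-HP, C4-LP and Pr-LP cells on a log scale, with the probe set taken for the gene filled and the others open, and the floor of each chip as a bar. The Gnptab difference is seen with 1 of 4 probe sets, that of Scarb2 with 2 of 2, and the second Cd68 probe set is under the floor throughout.

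Among the 11 peptidases, Pr-HP was above every responder population for 4 (26.4% of all genes), below for 2 (24.3% of all genes) and within their range, or tied with them at the floor, for 5. The cysteine protease Ctsb (cathepsin B) had 4026 units in Pr-HP cells, against 1708 in C4-HP, 2580.4 in C4-LP and 2236 in Pr-LP, a ratio of 1.85. Its 3 other probe sets gave 2.10, 1.74 and 1.05. The serine carboxypeptidase Ctsa (cathepsin A), which also protects β-galactosidase and neuraminidase in a complex, had 2531 units in Pr-HP cells, against 1681 in C4-HP, 1779.6 in C4-LP and 1235 in Pr-LP, a ratio of 1.62. Both were above all responder values without reaching the limma threshold (adjusted p = 0.446 for Ctsb and 0.508 for Ctsa). The aspartic protease Ctsd (cathepsin D) was at 1.30 times the responder mean.

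Ctsl and Ctsz followed other orders. The cysteine protease Ctsl (cathepsin L) had 3223 units in Pr-HP cells, against 1063 in C4-HP, 3561 in C4-LP and 1051 in Pr-LP. Pr-HP and C4-LP were high and C4-HP and Pr-LP were low. Ctsl had 1 probe set, so this order could not be checked with another. Pr-HP was 1.70 times the responder mean and lay within the responder range (limma adjusted p = 0.760), and without C4-LP the ratio was 3.05 (adjusted p = 0.136). The carboxypeptidase Ctsz (cathepsin Z) had 424.7 units in Pr-HP cells, against 170.8 in C4-HP, 334.2 in C4-LP and 445.5 in Pr-LP, and was low in C4-HP alone. The lowest ratio among the peptidases was 0.768, of Ctsf (cathepsin F), for which Pr-LP was the highest population.

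Among the 6 proteins of lipid breakdown and export, the lysosomal acid lipase Lipa, which releases cholesterol and fatty acids from lipoproteins and lipid droplets, was the highest. It had 412.0 units in Pr-HP cells, against 263.4 in C4-HP, 276.3 in C4-LP and 231.6 in Pr-LP. The single Pr-HP value was above every responder population, where 26.4% of all genes were. The ratio was 1.60, with a limma adjusted p of 0.342. The acid ceramidase Asah1 was the lowest at 0.794 times the responder mean, and Npc1 and Npc2, which export cholesterol, were at 0.815 and 1.11 times.

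Among the 7 glycosidases, Pr-HP was above every responder population for 0, where 26.4% of all genes were. It was below every responder population for 3, where 24.3% of all genes were, namely Gaa, Hexa and Man2b1, which break down glycogen, gangliosides and mannose-containing glycans, though Hexa in Pr-HP differed little from C4-HP. Ratios lay between 0.681, of Man2b1, and that of Gla, which was at the floor in all 4 populations, with a median log2 ratio of -0.23. Man2b1 had 3 other probe sets, with ratios of 1.09, 0.998 and 0.917, so its ratio under 0.7 was seen with 1 probe set. The other Gaa probe sets gave 1.09, above every responder population, and 0.886, below every responder population.

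Among the 8 autophagy genes, Pr-HP was above every responder population for 6, where 26.4% of all genes were, and 4 of the 6 were at most 1.14 times the responder mean. Map1lc3b encodes LC3B, which is joined to lipid on the growing autophagosome membrane. It had 1757 units in Pr-HP cells, against 895.9 in C4-HP, 962.4 in C4-LP and 1194 in Pr-LP. The ratio was 1.73 and its other probe sets gave 1.70 and 1.10 (limma adjusted p = 0.394 for the probe set taken). Sqstm1 (p62), the receptor that links ubiquitinated cargo to LC3, had 3051 units in Pr-HP cells, against 1652 in C4-HP, 2397 in C4-LP and 2115 in Pr-LP, and its ratio of 1.48 was just under 1.5. The upstream genes Ulk1, the initiating kinase, Becn1, of the lipid kinase complex, and Atg5 and Atg7, of the conjugation machinery, were between 1.03 and 1.14 times the responder mean. The LC3 relative Gabarap was at 0.936 times.

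Wipi1, which binds phosphatidylinositol 3-phosphate on the forming autophagosome, had the same crossed order as Ctsl. It had 1777.5 units in Pr-HP cells, against 448.5 in C4-HP, 1912 in C4-LP and 424.1 in Pr-LP. The ratio to the responder mean was 1.92, with a limma adjusted p of 0.740, and Pr-HP lay within the responder range. Without C4-LP the ratio was 4.07, with a limma adjusted p of 0.114. The same order, with C4-LP highest, Pr-HP next and C4-HP and Pr-LP low, was seen with its 2 other probe sets. The first of these had 548.1 units in Pr-HP, against 357.9 in C4-HP, 723.0 in C4-LP and 373.8 in Pr-LP, and the second had 496.7 in Pr-HP, against 232.9 in C4-HP, 714.5 in C4-LP and 165.4 in Pr-LP.

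**Figure D3:**
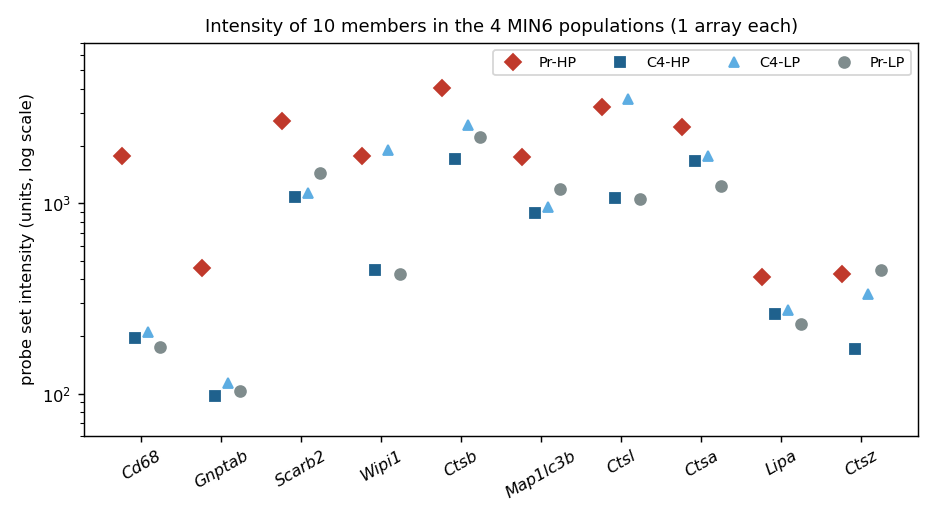
Intensity, on a log scale, of the 10 members named with all values in Pr-HP, C4-HP, C4-LP and Pr-LP cells, with 1 array for each point. Pr-HP lies above all responder populations for 7 of them, and for Wipi1 and Ctsl the Pr-HP and C4-LP points lie together above C4-HP and Pr-LP.

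High and low passage were also compared within each line, which uses separate arrays for the parental and the clone 4 cells. The same arrays entered the comparison of Pr-HP with the responder cells, so these ratios are not separate evidence from it. Between Pr-HP and Pr-LP, 5 members were at least 2-fold higher, where 1.61% of all genes were, and 0 were at least 2-fold lower, where 1.24% of all genes were. They were Cd68 (10.1 times), Gnptab (4.43 times), Wipi1 (4.19 times), Ctsl (3.07 times) and Ctsa (2.05 times). Between C4-HP and C4-LP, 2 members were at least 2-fold lower, where 0.783% of all genes were, and 0 were higher, where 0.276% of all genes were. These were Wipi1 at 0.235 times and Ctsl at 0.298 times, the same 2 genes that were higher at high passage in the parental line. Over all genes, 0.15% had both a 2-fold higher value in Pr-HP than Pr-LP and a 2-fold lower value in C4-HP than C4-LP. The study had already listed Cd68, Gnptab, Wipi1 and Ctsl as differing between populations, so the shares in this paragraph are a description.

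**Figure D4:**
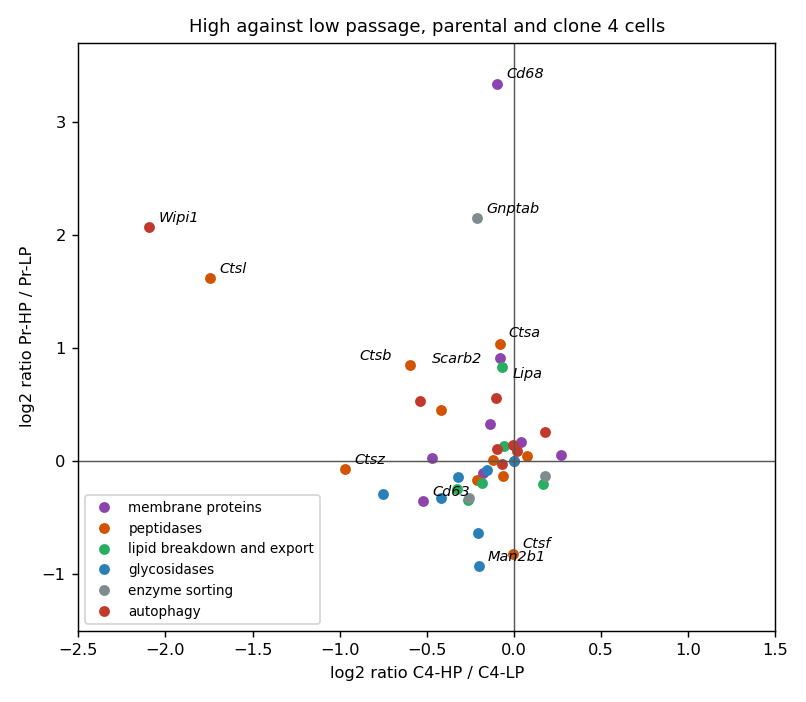
Log2 ratio of high to low passage in parental cells (vertical axis) against that in clone 4 cells (horizontal axis) for 43 members, coloured by role. Most members lie left of the vertical line, and Wipi1 and Ctsl lie at the upper left, at 4.19 and 3.07 times in parental cells and 0.235 and 0.298 times in clone 4 cells.

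Small differences in clone 4 ran mostly in the same direction. In C4-HP, 34 of the 43 members (79.1%) were lower than in C4-LP, where 42.7% of all genes were. Of the 40 members with a mean above the 40th percentile of their chip 33 were lower, where 48.5% of such genes were. The count of 34 was 33 after quantile normalization and 32 after scaling to equal trimmed means. The median log2 ratio was -0.14 over the members and 0.00 over all genes, and besides Ctsl and Wipi1 the lowest was Ctsz at 0.511 times. With 1 array in each population, differences of this size have no error and were not tested. In the parental line the corresponding numbers were 19 of 43 members lower in Pr-HP than in Pr-LP (44.2%), where 44.7% of all genes were.

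The low passage populations differed mainly in the same pair of genes. Between C4-LP and Pr-LP, 2 members were at least 2-fold higher, where 1.42% of all genes were, namely Wipi1 at 4.51 times and Ctsl at 3.39 times, and 0 were lower, where 0.921% of all genes were. Between C4-HP and Pr-HP, 7 members were at least 2-fold lower, where 1.37% of all genes were, and 0 were higher, where 0.877% of all genes were. The 7 were Cd68, Gnptab, Wipi1, Ctsl, Scarb2, Ctsz and Ctsb, between 0.110 and 0.424 times. These last 2 comparisons use the same arrays as the passage comparisons above and are not separate evidence. The study had already listed Wipi1 and Ctsl as differing between C4-LP and Pr-LP, so these shares too are a description.

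Of 129 other genes of the same pathways with a probe set, in 5 lists, limma tested 124 and called 0 at an adjusted p of 0.05, and at an unadjusted p of 0.05 it gave 7 higher in Pr-HP (5.65% of those tested, where 5.7% of all genes were) and 10 lower (8.06%, where 4.24% of all genes were). For the counts in these lists, Pr-HP was above every responder population for 26.4% of all genes and below for 24.3%. Of all genes, 1.05% were at least 2-fold higher and 0.933% at least 2-fold lower, and 3.04% and 3.06% at 1.5-fold. Of 25 further genes, most of them lysosomal hydrolases, 1 exceeded the responder mean 2-fold in Pr-HP, the asparaginyl endopeptidase Lgmn (legumain). It had 800.3 units in Pr-HP cells, against 245.9 in C4-HP, 400.8 in C4-LP and 197.8 in Pr-LP. In that list Pr-HP was above every responder population for 4 and below for 10, and the median log2 ratio was -0.15. The lowest were the cathepsins Ctse at 0.521 and Ctso at 0.639 times. The other Ctse probe sets gave 0.996 and 0.67, and the other Ctso probe set gave 1.07, in the opposite direction. The 16 measured subunits of the V-ATPase, the proton pump that acidifies the lysosome, all lay within 1.5-fold, with 6 above every responder population, 0 below and a median log2 ratio of 0.09. Of 34 further membrane and sorting proteins, the clathrin light chain Clta was at 2.33 times, while its other probe sets gave 1.25 and 1.05, and Pr-HP was above every responder population for 8 and below for 13, with a median log2 ratio of -0.09. Of 36 further autophagy genes 0 were past 2-fold, with 8 above every responder population, 10 below and a median log2 ratio of -0.01. Atg12, which is conjugated to Atg5, was the highest at 1.55 times. Rb1cc1, of the initiating kinase complex, was the lowest at 0.650 times, and its other probe sets gave 0.912 and 0.867. Of 18 genes of the MiT/TFE factors and of mTORC1, the growth kinase that docks on the lysosome, the GTPase Rragd was at 2.49 times, with 666.3 units in Pr-HP cells, against 136.2 in C4-HP, 222.9 in C4-LP and 444.9 in Pr-LP. Its other probe set gave 1.37. The MiT/TFE factor Tfe3 was at 1.07 times, and in this list Pr-HP was above every responder population for 2 and below for 6, with a median log2 ratio of -0.01.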

How the data were processed

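Total RNA of the 4 MIN6 populations was labelled with biotin and hybridised by the authors to Affymetrix MG-U74v2 chips A, B and C, 12 arrays in all. The authors deposited 1 intensity for each probe set and array, on a linear scale. The methods name the GeneChip software. The summary of probes and any normalization between arrays were not given in the sources used here. Genes were named from the array platform's annotation. Probe sets with 1 symbol were used (29131 of 36701), and control probe sets (198) were left out.

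Values were used unscaled and raised to the 20th percentile of the chip. Folds are ratios of Pr-HP to the arithmetic mean of the responder cells, or of 2 populations, with the higher side at least 100 units. Pr-HP was compared with the responder cells with limma 3.58.1 in R 4.3.3 (lmFit and eBayes) on log2 values within each chip, for probe sets with at least 1 array above the 40th percentile, and p-values were adjusted by Benjamini-Hochberg over the 3 chips (23340 probe sets). The p-values measure only the spread between 3 populations with 1 array each. The fit was tested on simulated data. Precision is limited by having so few arrays.

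Shares of all genes use 1 probe set for each of 15964 genes. Members named with all values are Cd68, Ctsl, Ctsb, Wipi1 and Gnptab, those called by limma, those at least 1.5-fold from the responder mean with Pr-HP outside the responder range, and those 2-fold different between 2 populations. Sqstm1 was added to show the range of its role. The members, gene lists, thresholds and alternatives were chosen with earlier results of these data known. Alternatives were other normalizations, floors, filters, minimums and probe sets, a geometric mean, the cell line as a block and leaving out each responder population. Promoters came from RefSeq, and 7 members had no match there.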

Additional observations from a re-analysis of the deposited data

Results flagged for a closer look

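For 3 members the difference between high and low passage was at least 1.5-fold in opposite directions in the parental and the clone 4 cells. Wipi1 was 4.191 times higher in Pr-HP than in Pr-LP, and in C4-HP it was at 0.2346 times its value in C4-LP. Ctsl was 3.068 times higher in Pr-HP than in Pr-LP and at 0.2984 times in C4-HP relative to C4-LP. Ctsb was 1.8 times higher in Pr-HP than in Pr-LP and at 0.6618 times in C4-HP relative to C4-LP. The Ctsb pattern at this size was seen with 1 of its 4 probe sets, since the other 3 were between 0.723 and 0.930 times in C4-HP relative to C4-LP. The members with such opposite differences are 6.98% of the list, and 1.09% of all genes had them. The study had already listed Ctsl and Wipi1 as differing between populations, and the members were chosen with this known. These shares are therefore a description. The difference between the lines was not tested, since each value rests on 1 array.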

How the results depend on the processing

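The limma calls among the members were the least stable result. The count of 1 was 2 (Cd68 and Gnptab) after scaling to equal trimmed means and with a floor of 1.0 unit, where Gnptab, with 1 of its 4 probe sets, had passed the filter through Pr-HP alone. It was 0 with the floor at the 40th percentile (6 at an unadjusted p of 0.05), with the second brightest probe set (4), without the filter (6) and with the cell line as a block (9), and it was 0 without each responder population in turn (from 6 to 12). Quantile normalization kept the call of Cd68. Over all probe sets limma called 19 in the main fit, 41 after scaling to equal trimmed means and 32 with a floor of 1.0 unit. It called 26 after quantile normalization, 108 without the filter and 3 without C4-LP. With the floor at the 40th percentile, with the block and without Pr-LP or C4-HP it called 0, so the loss there was not particular to the members. The count of members at least 2-fold higher in Pr-HP was 5 with a geometric mean, 1 (Scarb2) with the second brightest probe set, 9 at 1.5-fold, a threshold added after seeing the data, and between 3 and 6 when a responder population was left out. The 6, without C4-LP, were Cd68, Gnptab, Scarb2, Wipi1, Ctsl and Ctsb. Over all genes the count at least 2-fold higher was 168 in the main comparison, 185 with a geometric mean and 146 with the second brightest probe set. It was 486 at 1.5-fold, and 210, 178 and 175 without C4-LP, Pr-LP and C4-HP. With the second brightest probe set, 3 members were 2-fold different in Pr-HP against Pr-LP, 3 in C4-HP against Pr-HP and 1 in C4-LP against Pr-LP, where 362, 295 and 324 of all genes were. The Gnptab ratio then turned to 0.936, since its probe sets differ. Of 40 probe sets above the floor beside those taken, at least 1 ran in the opposite direction for 10 of 23 members, and 5 members had one over 1.5 times apart. The median log2 ratio over the members was between 0.00, without C4-HP, and 0.0529, without C4-LP, when a population was left out. The other alternatives left the counts of the main comparisons within 1.5 times. The cause of these shifts was not tested.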
